A study of Rattus norvegicus with 6 samples.

Results

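Cytochrome P450 genes were examined in cultured cortical neural progenitors of the rat. The 72 members were all gene names made of Cyp, a family number and a subfamily letter, with Cyp26b1 and Cyp51 left aside, out of 17337 gene names in the tables. The cells came from cortices of Sprague Dawley embryos at day 14. They were untreated apart from growth medium with 20 ng/ml bFGF and 20 ng/ml EGF, and were harvested once passaged a second time. PolyA mRNA was sequenced from 2 independent cultures, replicates A and B, and for each of them 2 technical libraries were made, called A1 and A2, B1 and B2. Every sample thus belonged to 1 condition, and the spread given below is the SD of the replicate means (n = 2). The embryos were of either sex, and how many were pooled was not given in the sources used here. Start-seq libraries of the same cells (2 samples) are not used here.

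Cytochrome P450 enzymes are heme proteins that insert oxygen into lipids and foreign compounds with electrons passed on by a reductase. Members of families 1 to 3 clear many drugs in the liver, family 4 hydroxylates fatty acids and eicosanoids, and other families make or break down sterols, bile acids, steroid hormones, vitamin D and retinoids. In brain, cholesterol leaves largely as an oxysterol made by Cyp46a1, an enzyme best known from neurons.

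The cultures carried mRNA of few P450 genes. Levels are in FPKM, fragments scaled to transcript length and to library depth, a measure per length that can be compared between genes. A mean of at least 1 FPKM was found for 16 of the 72 members (22.2%), where 60.5% of all gene names reached it. Another 32 lay above 0 and below 1 FPKM, of which 24 were below 0.1 FPKM, and 24 were listed at 0 in all 4 libraries (33.3%, against 13.3% of all gene names). The median was 0.008 FPKM over the members and 3.83 FPKM over all gene names. Expression was concentrated in a few genes: *Cyp4f6*, *Cyp20a1*, *Cyp2d4* and *Cyp46a1* made up 58.0% of the summed P450 FPKM, and the 16 members above 1 FPKM made up 97.7% of it.

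The labelled cell type was checked with marker genes. Of the 9 neural progenitor markers measured, all 9 had a mean of at least 1 FPKM, as had 6 of 8 neuron markers, 9 of 10 astroglia and oligodendrocyte markers and 15 of 18 mesenchymal, meningeal and mural cell markers. None of 7 endothelial and 8 microglia and blood markers did. The mesenchymal list summed to 1528 and 1622 FPKM in A1 and A2 and to 3312 and 5538 FPKM in B1 and B2, and 13 of its 18 genes were higher in B under the rule for replicates used below, against 4.78% of gene names with a mean of at least 1 FPKM. Library B2 was the shallowest: 1 FPKM stood for a read depth of 6.83 there, against 22.7 to 24.4 in the other libraries. The technical libraries of B agreed less well than those of A. Among gene names with a mean of at least 1 FPKM, 2.80% differed by at least 1 on the log2(FPKM + 1) scale within B and 0.153% within A. Those within B included the mesenchymal markers *Ptgds*, with 8.18 FPKM in B1 and 292 FPKM in B2, and *Foxc1*, with 29.4 and 115 FPKM. In such bulk samples, fewer cells of a type and less RNA per cell cannot be told apart.

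The sequence ahead of the start site is shown for the highest member of each role, since members above and below 1 FPKM differed in what it holds. The 150 bases before the annotated start are given from RefSeq (build GRCr8), 5′ to 3′ on the strand of the gene, with every CG pair in capitals, and likewise every TATAAA, which reads as TTTATA where it lies on the other strand.
Cyp4f6: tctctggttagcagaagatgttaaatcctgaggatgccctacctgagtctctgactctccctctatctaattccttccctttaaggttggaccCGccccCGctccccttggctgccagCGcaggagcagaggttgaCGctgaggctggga
Cyp20a1: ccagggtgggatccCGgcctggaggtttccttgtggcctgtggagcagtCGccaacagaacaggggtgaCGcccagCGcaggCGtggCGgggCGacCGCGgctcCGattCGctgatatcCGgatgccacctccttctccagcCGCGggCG
Cyp2d4: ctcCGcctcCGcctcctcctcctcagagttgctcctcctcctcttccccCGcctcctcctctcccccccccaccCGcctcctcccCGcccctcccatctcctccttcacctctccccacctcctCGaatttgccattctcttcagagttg
Cyp46a1: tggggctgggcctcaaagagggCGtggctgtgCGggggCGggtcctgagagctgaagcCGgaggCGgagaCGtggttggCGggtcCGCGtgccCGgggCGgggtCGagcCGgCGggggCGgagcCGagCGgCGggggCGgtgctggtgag
Cyp2u1: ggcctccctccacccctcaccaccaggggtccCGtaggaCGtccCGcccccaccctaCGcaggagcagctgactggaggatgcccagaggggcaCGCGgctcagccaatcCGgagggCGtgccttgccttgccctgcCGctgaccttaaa
Cyp27b1: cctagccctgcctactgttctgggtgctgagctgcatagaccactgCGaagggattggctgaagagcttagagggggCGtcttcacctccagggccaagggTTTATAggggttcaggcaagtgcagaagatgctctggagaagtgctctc
Cyp21a1: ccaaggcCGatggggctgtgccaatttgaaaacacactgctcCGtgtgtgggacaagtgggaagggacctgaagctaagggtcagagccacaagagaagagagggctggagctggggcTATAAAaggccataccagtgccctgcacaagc
Cyp26a1: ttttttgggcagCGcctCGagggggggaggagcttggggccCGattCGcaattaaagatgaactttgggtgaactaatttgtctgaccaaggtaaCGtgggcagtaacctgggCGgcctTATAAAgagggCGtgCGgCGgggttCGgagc
The stretches lie at chr7:12708379-12708528 (minus strand, *Cyp4f6*), chr9:69249723-69249872 (plus strand, *Cyp20a1*), chr7:115771822-115771971 (minus strand, *Cyp2d4*), chr6:133011840-133011989 (plus strand, *Cyp46a1*), chr2:222540990-222541139 (minus strand, *Cyp2u1*), chr7:64756476-64756625 (plus strand, *Cyp27b1*), chr20:4028241-4028390 (plus strand, *Cyp21a1*) and chr1:244883672-244883821 (plus strand, *Cyp26a1*). *Cyp46a1*, *Cyp20a1*, *Cyp2u1*, *Cyp2d4* and *Cyp4f6*, the members of the set with a mean above 1 FPKM, held 19, 15, 9, 6 and 4 CG pairs in these bases and no TATAAA. The 3 members of the set under 1 FPKM held one, beginning 32 bases before the start in *Cyp21a1*, 31 bases in *Cyp26a1* and 49 bases in *Cyp27b1*, with 2, 10 and 2 CG pairs. Distances here and windows below are counted from annotated starts. The paper of these data found many such starts shifted from those it mapped by Start-seq, and the mapped starts were not used here.

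RefSeq promoter windows were matched for 57 members, 12 of them above 1 FPKM. In the 250 bases before the start, the 12 members above 1 FPKM had a median GC content of 58.6% (range 52.4% to 71.2%), and the 45 others had 46.4%. TATAAA, searched on both strands, was found in 1 of the 12 (8.33%), *Cyp2d3*, and in 17 of the 45 (37.8%). The same direction was seen over all gene names: TATAAA was in 5.91% of 8488 promoters of genes above 1 FPKM and in 20.6% of 4949 promoters of the rest, with median GC contents of 60.8% and 48.8%. Over all 27457 promoters of the table, 13.1% held it. By role, TATAAA was in 14 of 27 hepatic promoters (51.9%), 3 of 8 sterol and retinoid promoters (37.5%) and 1 of 11 family 4 promoters (9.09%). A GC content of at least 50% was found in 4, 8 and 5 of these, against 72.3% of all gene names matched. A match of letters is a description of the window and not a site shown to be used.

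**Figure D1:**
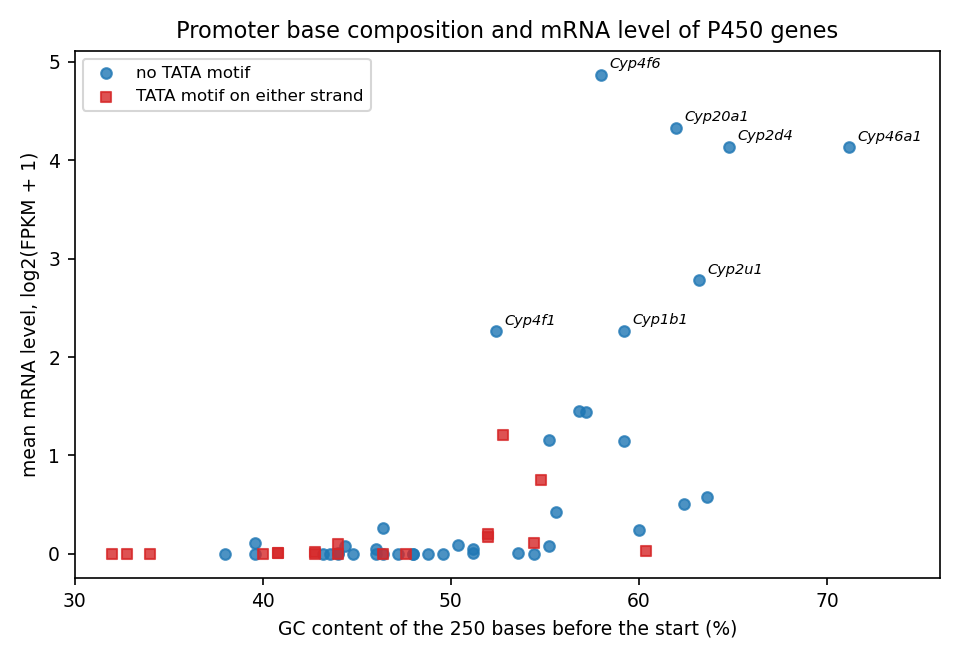
Mean mRNA level of the 57 P450 genes with a promoter window, as log2(FPKM + 1) on the vertical axis, against the GC content in percent of the 250 bases before the start. Red squares hold the TATA motif TATAAA on either strand and blue circles do not, and genes above 3 FPKM are named. The 12 genes above 1 FPKM lie between 52.4% and 71.2% GC, and 1 of them is a red square.

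The hepatic drug-metabolising subfamilies were compared with the sterol and retinoid families. The hepatic list (subfamilies 1a, 2a, 2b, 2c, 2d, 2e and 3a) had 30 members, of which 2 reached 1 FPKM (6.67%) and 14 were listed at 0. The sterol, bile acid, steroid hormone, vitamin D and retinoid genes together had 16 members, of which 3 reached 1 FPKM (18.8%) and 6 were listed at 0. Most genes of both lists lay near 0, and the medians were 0.0035 FPKM for the sterol and retinoid genes and 0.00099 FPKM for the hepatic genes. On the log2(FPKM + 1) scale, the sterol and retinoid median was 0.0036 ± 0.0056 above the hepatic one, which is within the spread of the replicates. The difference was 0.58 when only sterol, bile acid and retinoid genes were taken.

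The levels that the 2 lists did have came from few genes. Summed FPKM was 22.8 in A and 14.2 in B for the hepatic list and 30.8 in A and 25.1 in B for the sterol and retinoid list, so the latter was higher in both replicates. The direction turned when all of families 1 to 3 were set against it, with 34.6 FPKM in A and 29.7 FPKM in B. *Cyp2d4* alone gave 89.7% of the hepatic sum, and without it 1.90 of 18.5 FPKM were left. *Cyp46a1* and *Cyp7b1* gave 90.8% of the sterol and retinoid sum of 28.0 FPKM. Of the summed P450 FPKM, 13.2% ± 1.81 came from hepatic genes, 20.3% ± 1.10 from the sterol and retinoid genes, 42.4% ± 4.70 from family 4 and 10.3% ± 3.95 from the other genes of families 1 and 2.

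**Figure D2:**
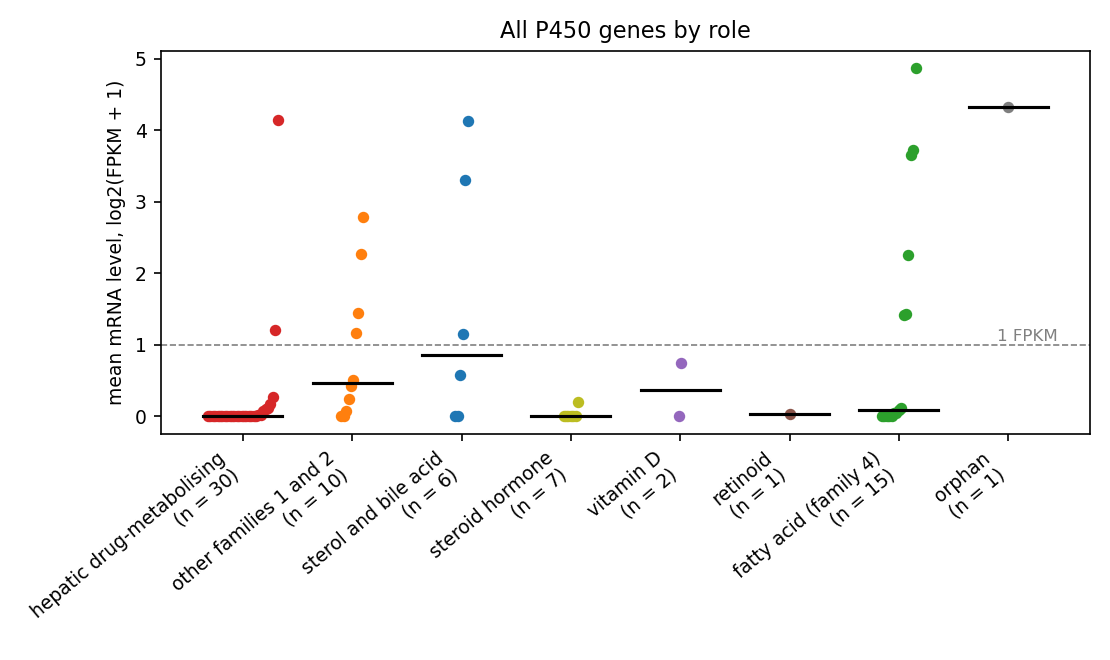
Mean mRNA level of each of the 72 P450 genes, as log2(FPKM + 1), by role. Points are genes, black bars are medians and the dashed line marks 1 FPKM: most of the 30 hepatic genes lie at the bottom with *Cyp2d4* far above them, and 6 of the 15 family 4 genes lie above the line.

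Among the sterol and bile acid genes, *Cyp46a1* (chr6:132242328-132273787, plus strand, rn6) had 21.8 and 21.5 FPKM in A1 and A2 and 10.1 and 12.8 FPKM in B1 and B2 (16.6 ± 7.23). *Cyp7b1* (chr2:102701904-102871257, minus strand), which hydroxylates oxysterols and neurosteroids, had 6.50, 7.48, 10.8 and 10.6 FPKM in A1, A2, B1 and B2 (8.84 ± 2.61). The libraries of A were above those of B for the former and below them for the latter. *Cyp27a1*, the mitochondrial sterol side-chain hydroxylase of bile acid synthesis, had 0.623, 0.490, 1.74 and 2.02 FPKM in the same order (1.22 ± 0.934), so that it passed 1 FPKM in B alone. *Cyp39a1*, an oxysterol hydroxylase that acts on the product of Cyp46a1, averaged 0.496 FPKM. *Cyp8b1*, the sterol hydroxylase that sets the make-up of bile acids, averaged 0.0031 FPKM and was above 0 in A1 alone. *Cyp7a1*, the rate-limiting enzyme of hepatic bile acid synthesis, was listed at 0.

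Steroid hormone, vitamin D and retinoid genes were low. None of the 7 steroid hormone genes reached 1 FPKM. *Cyp11a1*, which starts steroid synthesis from cholesterol, and the corticosteroid genes *Cyp11b1*, *Cyp11b2* and *Cyp11b3* were listed at 0, and *Cyp19a1* (aromatase) and *Cyp17a1* were above 0 in 1 library each, A2. *Cyp21a1* had the highest mean of them, 0.152 FPKM, which was 0.0707 FPKM without B2. It overlaps *C4a* and *Stk19* on its own strand, so reads of these genes may be shared. For vitamin D, *Cyp27b1*, which makes the active hormone, averaged 0.685 FPKM and was the highest member below 1 FPKM, while *Cyp24a1*, which degrades that hormone, was listed at 0. *Cyp26a1*, the retinoic acid hydroxylase and the only retinoid gene here, averaged 0.0213 FPKM and was above 0 in A1 and A2 only.

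The hepatic list was led by *Cyp2d4* (chr7:123599264-123608436, minus strand), a drug-metabolising gene that has been studied in rat brain. It had 21.2, 19.0, 16.5 and 9.65 FPKM in A1, A2, B1 and B2 (16.6 ± 4.98). *Cyp2d3* had 1.87, 1.85, 0.902 and 0.637 FPKM (1.32 ± 0.771). For both, each library of A was above each of B. The other 28 hepatic members lay below 1 FPKM, with *Cyp2d2* at 0.202 FPKM the highest. *Cyp1a1* and *Cyp1a2*, the classical targets of the aryl hydrocarbon receptor, averaged 0.0072 and 0.0014 FPKM. *Cyp2e1*, which oxidises ethanol, averaged 0.0168 FPKM, or 0.0277 FPKM without B2. The 14 hepatic genes listed at 0 were *Cyp2a1*, *Cyp2a2*, *Cyp2a3*, *Cyp2b1*, *Cyp2b3*, *Cyp2b12*, *Cyp2b15*, *Cyp2b21*, *Cyp2c7*, *Cyp2c12*, *Cyp2c13*, *Cyp2c22*, *Cyp3a2* and *Cyp3a23/3a1*. Several of these have long listed spans that overlap other genes, up to 961392 bases for *Cyp3a2*, and an entry of 0 there may be a failed estimate.

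Hepatocyte markers were read beside these levels. Of the 12 markers, 5 reached 1 FPKM, and the list summed to 99.7, 102, 36.6 and 10.7 FPKM in A1, A2, B1 and B2. *Ttr*, which choroid plexus also makes, was the highest in A1, A2 and B1, with 80.7, 82.6 and 26.4 FPKM, and had 3.03 FPKM in B2. The fibrinogen genes *Fga* and *Fgg* averaged 6.79 and 3.33 FPKM, and *Apoa1* and *Tf* 1.64 and 1.42 FPKM. The other 7 markers lay below 1 FPKM, among them the defining genes *Alb*, *Afp* and *Ahsg* with 0.679, 0.104 and 0.0019 FPKM. *Ttr*, *Fga* and *Fgg*, which reached 1 FPKM in both replicates, had each library of A above each of B, as had *Cyp2d4* and 32.0% of all gene names at this level. The part of the cells that carry these markers in the *Cyp2d4* level was not tested.

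Outside the hepatic list, families 1 and 2 had 10 members, 4 of them above 1 FPKM. *Cyp2u1* (chr2:236414133-236431596, minus strand), a fatty acid hydroxylase present in brain, had 6.41, 6.68, 5.27 and 5.21 FPKM in A1, A2, B1 and B2 (5.89 ± 0.923). *Cyp1b1* (chr6:2310988-2316722, minus strand), which oxidises estradiol, retinoids and polycyclic hydrocarbons outside the liver, had 2.22, 2.00, 3.50 and 7.57 FPKM (3.82 ± 2.42). Both separated the replicates, in opposite directions, and the B2 value of *Cyp1b1* was far above that of B1. The arachidonic acid epoxygenase genes *Cyp2j3* and *Cyp2j4* had 1.12, 1.32, 2.91 and 1.58 FPKM and 0.813, 0.904, 2.07 and 1.16 FPKM. Their highest value was in B1. *Cyp2s1* and *Cyp2t1* followed below 1 FPKM, with 0.417 and 0.343 FPKM, and *Cyp2t1* overlaps *Egln2* on the other strand. *Cyp2r1*, the vitamin D hydroxylase of liver, averaged 0.183 FPKM, and *Cyp2g1*, an olfactory P450, was listed at 0.

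Family 4 held the largest share of the summed P450 FPKM. *Cyp4f6* (chr7:15198968-15225399, minus strand), the gene with the highest mean, had 45.6 and 31.4 FPKM in A1 and A2 and 20.9 and 14.9 FPKM in B1 and B2 (28.2 ± 14.6), rank 3705 of all gene names. *Cyp4f17* had 17.2, 11.2, 10.8 and 9.77 FPKM (12.2 ± 2.78). *Cyp4f4* had 14.3, 10.7, 13.5 and 7.78 FPKM (11.6 ± 1.31). These Cyp4f genes encode hydroxylases of long-chain fatty acids and eicosanoids, and the libraries of A and B did not overlap for the first 2 but did for *Cyp4f4*. *Cyp4f1* had 3.09, 2.77, 6.25 and 3.09 FPKM (3.80 ± 1.23), with B1 standing apart. *Cyp4v3*, of a subfamily that hydroxylates medium-chain fatty acids, had 1.22, 1.26, 2.43 and 1.78 FPKM (1.67 ± 0.611). *Cyp4f5* had 2.52, 2.64 and 1.69 FPKM in A1, A2 and B1 and was listed at 0 in B2. Its listed span encloses *Cyp4f37* on the same strand, and its coverage was 0.5 times what its FPKM implies elsewhere in the table, so its level is uncertain. The 9 other members of the family lay below 0.1 FPKM, among them *Cyp4a2*, *Cyp4a3* and *Cyp4a8*, which were listed at 0.

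*Cyp20a1* (chr9:67130259-67179693, plus strand), an orphan P450 without an agreed substrate, varied least among the 4 highest members. It had 19.2, 21.6, 16.2 and 19.5 FPKM in A1, A2, B1 and B2 (19.1 ± 1.80), and the libraries of A and B overlapped.

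In the order of the 16 levels, most neighbours could not be separated. The difference of the means was larger than the greater of the 2 SDs for 3 neighbouring pairs: *Cyp4f4* above *Cyp7b1*, *Cyp7b1* above *Cyp2u1* and *Cyp4f1* above *Cyp2j3*. The first of these orders did not hold in replicate B. *Cyp4f6* was above *Cyp20a1* in A1, A2 and B1 and below it in B2. Among the 4 highest genes, from *Cyp4f6* to *Cyp46a1*, no neighbouring pair differed by more than its spread. Within each library, however, *Cyp4f6* was above *Cyp2d4* and *Cyp46a1*.

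**Figure D3:**
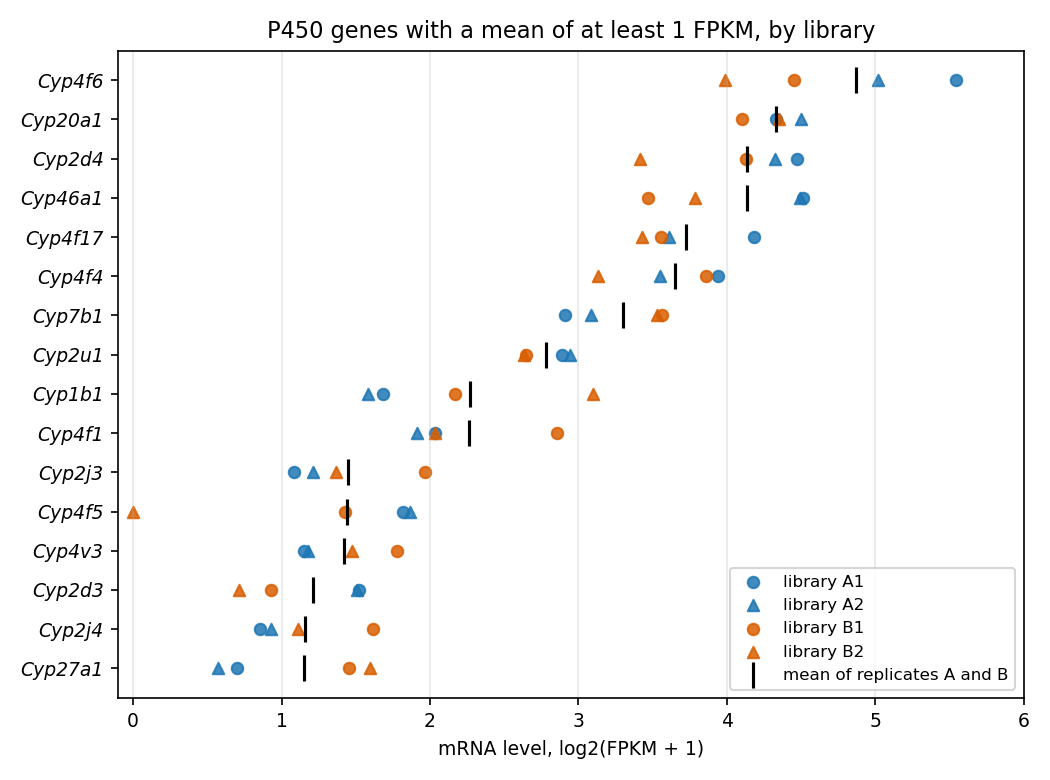
mRNA level of the 16 P450 genes whose mean reached 1 FPKM, as log2(FPKM + 1). Blue symbols are libraries of replicate A, orange symbols libraries of replicate B, and black ticks the mean of both replicates: *Cyp20a1* has closely placed symbols, *Cyp4f6* and *Cyp1b1* are spread, and *Cyp4f5* lies at 0 in B2.

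Detection of the weakly expressed members differed between libraries. Above 0 FPKM were 40 and 45 P450 genes in A1 and A2 but 33 and 28 in B1 and B2, while those at or above 1 FPKM numbered 14, 14, 15 and 14. There were 14 members above 0 in replicate A only, the highest of them, *Cyp3a9*, at a mean of 0.0593 FPKM, and 0 members above 0 in replicate B only. Over all gene names, 5.24% were above 0 in A only and 1.07% in B only. Among those above 0 and below 1 FPKM, A only held 43.8% of 32 members and 20.0% of 4550 gene names, and B only held 4.09% of the gene names. In B1, whose read depth per FPKM was close to that of A1, fewer members were above 0 than in A1. The cause of the difference in detection was not tested.

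Position in the genome was a property the choice of members had not used. With gaps of at most 1 Mb, 49 members fell into 11 clusters and 23 stood alone. Of the members above 1 FPKM, 8 were in clusters and 8 stood alone, so that 8 of 49 clustered and 8 of 23 single genes were expressed. They came from 3 of the clusters, and the other 8 clusters had none. The Cyp4f cluster (chr7:14529483-15225399) had 5 of 7 members above 1 FPKM and gave 41.5% of the summed P450 FPKM. The Cyp2d cluster (chr7:123599264-123655896) had 2 of 5 and gave 13.2%. The largest, with 11 genes of subfamilies 2a, 2b, 2f, 2g, 2s and 2t (chr1:82595211-83969466), had none above 1 FPKM and 7 listed at 0.

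Levels within the expressed clusters differed widely. *Cyp2d4* was 10.8 times as high as *Cyp2d3* in A and 16.98 times in B, and 79.2 and 86.5 times as high as *Cyp2d2*. *Cyp2d1* and *Cyp2d5* were lower still, with means of 0.124 and 0.0818 FPKM. *Cyp4f37* and *Cyp4f40* lay between expressed neighbours with 0.0828 and 0.0087 FPKM. Paralogs of these clusters are close in sequence and can share reads, so levels of single paralogs are uncertain.

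**Figure D4:**
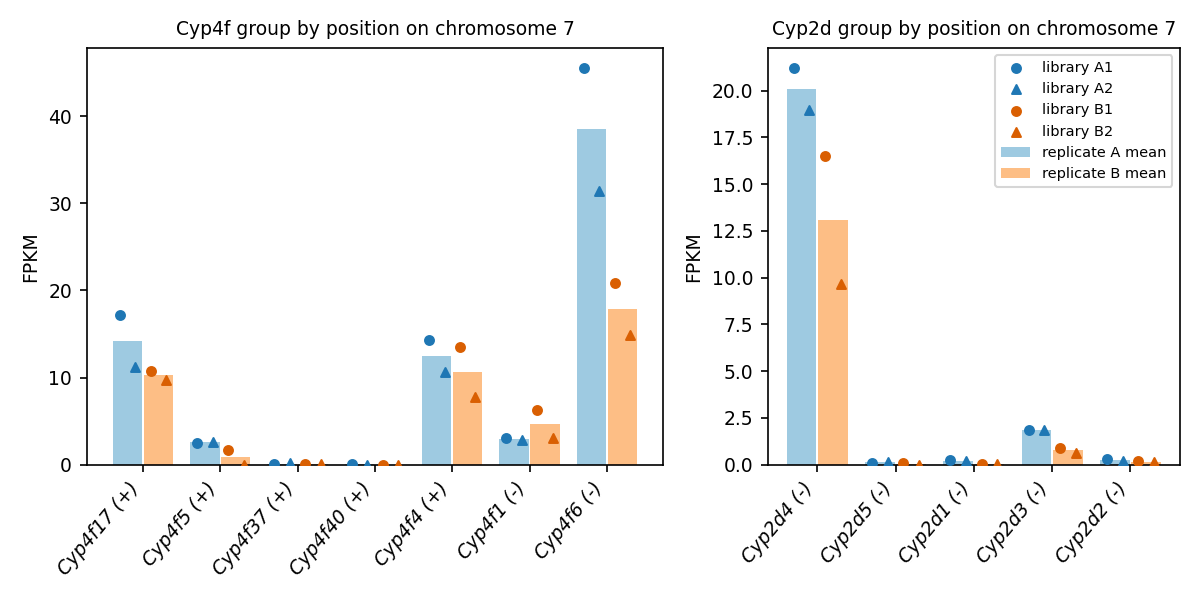
FPKM of the Cyp4f and Cyp2d genes of chromosome 7 in their order along the chromosome, with the strand in parentheses. Bars are the means of replicates A (blue) and B (orange) and symbols the 4 libraries: *Cyp4f6* and *Cyp2d4* are the highest of their clusters in both replicates.

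Replicates A and B were compared to see which P450 levels varied between cultures. A gene was said to differ when its mean was at least 1 FPKM, the replicate means differed by at least 1 on the log2(FPKM + 1) scale and the libraries of A and B did not overlap. With 2 replicates of 1 condition there was no test. Of the 16 members, 2 differed (12.5%), against 6.20% of the 10481 gene names at this level. *Cyp1b1* was higher in B by 1.07 on that scale, as were 4.78% of all gene names under the rule, and *Cyp4f6* was higher in A, with a difference of -1.07, as were 1.42%. Both calls rest on single libraries. Without B2 the differences were 0.53 and -0.85, and without A1 that of *Cyp4f6* was -0.78. When log2 values instead of FPKM were averaged over technical libraries, a choice made after seeing the data, *Cyp1b1* fell just short at 0.9993 and *Cyp4f5* passed at -1.13.

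Smaller differences were common. The libraries of A and B did not overlap for 13 of the 16 members, 6 higher in B and 7 higher in A, while 60.1% of all gene names were apart in this way (28.1% higher in B and 32.0% higher in A). The median absolute difference was 0.55 for the members and 0.24 for all gene names at this level. *Cyp27a1*, *Cyp2j4*, *Cyp2d3* and *Cyp4f5* reached a mean of 1 FPKM only through the replicate in which they were high, so the level asked for favoured a difference. Among the 12 members at 1 FPKM in both replicates, a filter set after seeing the data, 9 were apart (75.0%, against 59.2% of gene names), 4 higher in B and 5 higher in A, with a median absolute difference of 0.54 against 0.23. After *Cyp1b1*, the members higher in B were *Cyp27a1* (0.89), *Cyp2j3*, *Cyp7b1*, *Cyp2j4* and *Cyp4v3*, the last 4 between 0.47 and 0.55. Higher in A beside *Cyp4f6* were *Cyp4f5* (-0.96), *Cyp46a1* (-0.87), *Cyp2d3* (-0.69), *Cyp2d4* (-0.59), *Cyp4f17* (-0.43) and *Cyp2u1* (-0.27). Marker lists moved with the replicates in both directions. The mesenchymal sum was higher in B, and highest in B2 as *Cyp1b1* was. Of the 9 neural progenitor markers, 5 had libraries apart and higher in A (32.0% of gene names did), led by *Fabp7* with 16800 and 18557 FPKM in A1 and A2 and 6520 and 5485 FPKM in B1 and B2. Without *Fabp7* the list summed to 4282, 4626, 3616 and 5442 FPKM in A1, A2, B1 and B2, most of it *Vim*, with no direction between the replicates. Of these 8 genes, *Nes*, *Vim* and *Slc1a3* had higher means in B and the other 5 in A, where *Sox2*, *Hes1*, *Hes5* and *Sox9* had libraries apart. The neuron markers *Dcx*, *Map2*, *Snap25* and *Neurod1*, 4 of 8, were also apart and higher in A. *Neurod1* averaged 0.292 FPKM, below the level for which the share of gene names was computed. Of the astroglia and oligodendrocyte markers, *Pdgfra* and *Olig1* met the rule with higher levels in B and *S100b* with a higher level in A. The 7 endothelial markers all lay below 1 FPKM, where no such share was computed, and 6 were apart and higher in B. The part of these cells in the differences was not tested.

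**Figure D5:**
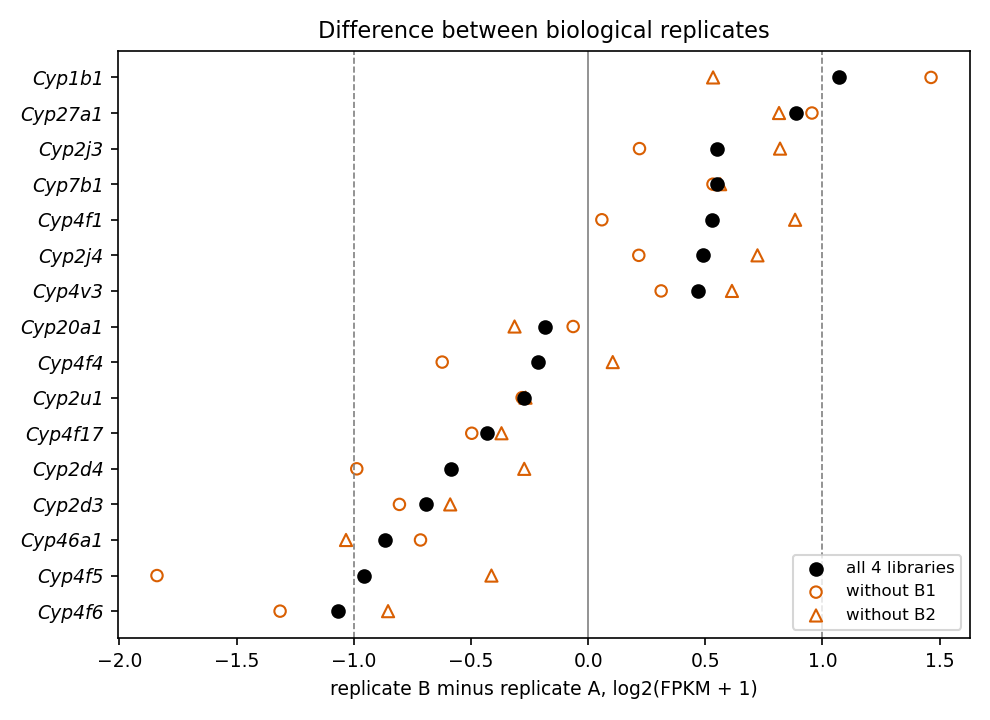
Difference between replicates (B minus A, log2(FPKM + 1)) for the 16 P450 genes whose mean reached 1 FPKM. Black points use all 4 libraries, open circles leave out B1 and open triangles leave out B2, and dashed lines mark a difference of 1: *Cyp1b1* and *Cyp4f6* are past the lines with all libraries and within them without B2.

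Genes that P450 enzymes depend on were present. Of 12 genes for electron donors and heme, 11 had a mean of at least 1 FPKM (60.5% of all gene names did) and none met the rule for differing replicates (6.20% of gene names did). *Hmox1*, which degrades heme, fell just short, with 7.62, 8.63, 16.5 and 17.8 FPKM in A1, A2, B1 and B2 and a difference of 0.993. Of the 11 genes above 1 FPKM, 8 had libraries of A and B that did not overlap, against 60.1% of gene names above 1 FPKM. *Por*, the reductase of the microsomal P450s, had 46.3 ± 3.85 FPKM. *Fdx1* and *Fdxr*, which supply the mitochondrial P450s, had 21.8 ± 4.84 and 11.7 ± 0.305 FPKM, although 1 of the 7 mitochondrial P450 genes, *Cyp27a1*, reached 1 FPKM and 5 were listed at 0. The highest of this list were *Pgrmc1* (149 ± 15.7 FPKM), a heme-binding partner, *Cyb5a* (141 ± 13.0 FPKM), cytochrome b5, and *Cyb5r3* (78.5 ± 12.6 FPKM), its reductase.

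Of 23 known regulators of P450 genes, 11 reached 1 FPKM, against 60.5% of all gene names. Of these, 1 met the rule for differing replicates, against 6.20%: the retinoic acid receptor gene *Rarb*, with 1.24, 1.18, 5.03 and 4.76 FPKM in A1, A2, B1 and B2. The highest were the liver X receptor gene *Nr1h2* (78.6 ± 1.36 FPKM), *Rxrb* (54.4 ± 4.29 FPKM) and *Rara* (30.9 ± 8.72 FPKM). *Ahr*, the receptor for aryl hydrocarbons that acts on *Cyp1a1*, *Cyp1a2* and *Cyp1b1*, had 4.94, 5.76, 8.85 and 14.0 FPKM. Its libraries were higher in B, as those of *Cyp1b1* were, with a difference of 0.97. *Cyp1a1* was above 0 in A1 and A2 only and *Cyp1a2* in A2 only. The part of *Ahr* in the *Cyp1b1* level was not tested. The letters GCGTG, the core of the *Ahr* binding motif, searched on both strands, were in the window of *Cyp1b1* and in 7 of the 12 members above 1 FPKM with a window (58.3%), against 46.3% of gene names above 1 FPKM and 27.2% of all promoters of the table. Of the xenobiotic receptor genes of liver, *Nr1i3* had 3.37 ± 0.351 FPKM, near the median of all gene names, and *Nr1i2* 0.0057 FPKM. *Hnf4a*, a master regulator of hepatocytes, had 0.0007 FPKM.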

How the data were processed

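The authors prepared polyA libraries, aligned reads to rn6 with STAR and deposited 1 gene table per library, in the layout of StringTie, with coverage, FPKM and TPM. The deposited FPKM values, scaled by the authors for length and depth, were used throughout. The deposited TPM values, which sum to 1000000 per library, served as an alternative, and the deposited coverage (signal) divided by FPKM gave the relative depth. The authors' methods name Rsubread and DESeq2 for FPKM, whereas the tables have the StringTie layout. Read totals are not in these tables, so no counting interval is given.

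FPKM was summed over entries of a gene name and averaged over technical libraries and then over replicates. Named are all members with a mean of at least 1 FPKM, the 5 highest below it and those listed at 0. The other members named between 0 and 1 FPKM were chosen after their values were seen. Members and lists were chosen with earlier results of these data known. Sequences are from RefSeq (GRCr8), first window per gene. Python 3.11.15, pandas 2.3.3, numpy 2.4.6 and matplotlib 3.10.9 were used. Alternatives were TPM, other levels, pseudocounts, list definitions, scaling to 1 median and leaving out libraries.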

Additional observations from a re-analysis of the deposited data

Results flagged for a closer look

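Among 22 values examined over the 4 libraries, 2 had a library far from the others by Dixon's criterion, which chance meets in about 1 of 20 sets of independent samples. The 4 libraries are 2 technical libraries of each of 2 replicates and so are not independent, and this rate does not hold for them. *Cyp4f1* had 6.25 FPKM in B1, where the gap to the nearest library was 0.906 of the whole range (critical value 0.829). The hepatic share of the summed P450 FPKM was 9.48% in B2, the shallowest library, against 14.0% to 14.8% in the others, with a gap of 0.849 of the range. In B2, *Cyp2d4* was 9.65 FPKM.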

How the results depend on the processing

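Of 50 alternative values of 6 summary results, 37 stayed, 13 moved and 0 reversed. A count moved if it changed by more than 1.5 times and another value if it changed by more than 1 SD of the replicates. Counts and shares cannot be negative, so only the median difference could change sign. That difference was 0 without replicate A. The order of the summed FPKM, which turned with all of families 1 to 3, was not among the 6 results. At 5 FPKM the members reaching the level were 8 instead of 16, and the hepatic ones 1 instead of 2. The hepatic count was also 1 when 1 FPKM was asked in each library, was 1 to 2 with a replicate or library left out, and was 6 with all of families 1 to 3, which raised the hepatic share from 13.2% to 23.4%. The sterol and retinoid median exceeded the hepatic one by 0.036 with a pseudocount of 0.1, by 0.37 over genes above 0 and by 0.58 with only sterol, bile acid and retinoid genes, against 0.0036. Members differing between replicates were 4 with TPM, 5 with a pseudocount of 0.1 and 7 at a log2 difference of 0.58, against 2, and 1 to 3 with a library left out: *Cyp46a1* alone without B2, and *Cyp1b1*, *Cyp4f5* and *Cyp4f6* without B1. The settings without B1, with log2 values averaged and with 1 FPKM in both replicates were added after seeing the data. The cause of these changes was not tested. Among single genes, leaving out B2 moved the level of *Cyp4f4* by more than its SD, to 13.0 FPKM. TPM levels are in another unit, so their shift from FPKM is no sign of change. No paired analysis was possible because the Start-seq samples, which share replicates A and B with the mRNA libraries, were not analysed here and the mRNA libraries form 1 group. Depth limits B2 most, with 28.1% of the read depth per FPKM of B1.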
